A study of Mus musculus with 3 samples.

Results

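The collagen genes are the 43 mouse genes named Col, a type number, the letter a and a chain number that had a probe on the array, out of 20877 genes that could be named. Each probe was named through its RefSeq accession, and the 43 genes carried 63 of the 39429 probes. The RefSeq table holds 44 such genes, and no probe was matched to Col12a1. By class, 11 genes encode fibrillar collagens, 8 encode basement membrane collagens and 24 encode other collagens (type VI beaded filaments, type VIII and X networks, type VII anchoring fibrils, fibril-associated collagens, transmembrane collagens and types XXVI and XXVIII). The rule reads gene names alone.

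Collagens are secreted or membrane proteins whose chains wind around each other through long Gly-X-Y repeats. Fibrillar collagens, chiefly types I, III and V, form the cross-linked fibres that give the corpus cavernosum its tensile strength, while type IV collagen forms the sheet on which endothelial and smooth muscle cells rest. Fibroblasts and smooth muscle cells are the usual sources of fibrillar collagen, and endothelial cells make type IV, XV and XVIII collagen. After synthesis the chains are hydroxylated, folded with the chaperone Serpinh1 (Hsp47), trimmed by proteases and cross-linked by lysyl oxidases, and they are later broken down by collagenases.

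RNA was measured on 3 one-colour Agilent arrays of primary endothelial cells cultured from the cavernous tissue of the penis of C57BL/6 mice. One group was kept in normal glucose (5 mmol as labelled), one in high glucose (30 mmol) and one in high glucose with DKK2, a secreted modulator of Wnt signalling for which the labels state no dose. Exposure lasted 48 h in each group, and the labels list the same serum-containing medium with heparin and added VEGF-A for all groups. Each array held a pool of RNA from 3 samples, so every condition is a single value, without replicates or p-values. The labels state the strain but no age of the mice.

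The 75th percentile of processed signal was 1201 at normal glucose, 2380.1 at high glucose and 2417 with DKK2. Signals below were therefore scaled so that every array had the 75th percentile of the normal glucose array, and a difference is log2 of the ratio of 2 scaled signals. Signals of different genes come from different probes and are not levels to be ranked against each other. The technical error of a difference, from the scanner's error model, had a median SD of 0.20 over the collagen genes, and it does not hold the variation between cultures. A size rule of 2-fold (a log2 difference of 1) was used throughout for "higher" and "lower" in counts, and the share of all measured genes past the same line is given for each comparison. An array's position on the slide and its condition cannot be told apart.

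The cell type label was set against marker genes. Of 10 endothelial markers, 8 were well above background at normal glucose, 10 at high glucose and 9 with DKK2. Emcn was not above it in normal glucose, and Erg was above it only in high glucose. All 6 fibroblast markers (Pdgfra, Dcn, Lum, Dpt, Fap and Thy1) and all 7 smooth muscle and pericyte markers were well above background on every array. The scaled signal of Dcn, a fibroblast proteoglycan gene, was 268191 at normal glucose, 251221 at high glucose and 173287 with DKK2. In these bulk samples fewer cells of a type and less RNA per cell cannot be told apart.

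Of the 43 collagen genes, 35 were well above background on all 3 arrays, 2 on 2 arrays (Col6a4 and Col28a1), 1 on a single array (Col13a1) and 5 on none. The 5 were Col4a3, Col6a5, Col6a6, Col19a1 and Col26a1. The 35 included all 11 fibrillar genes and 7 of the 8 basement membrane genes. No bound for a collagen gene above background on only 1 array of a pair reached 2-fold. The largest of them was at least 1.73-fold, for Col6a4 with DKK2 against normal glucose.

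The start regions of 5 members are shown here, from RefSeq sequence of build GRCm38.p6, each running from 250 bases before to 50 bases after the annotated start. They are the regions of the fibrillar genes Col1a2 and Col3a1, whose differences with DKK2 were below 0 but within 2-fold, of Col4a1 and Col4a2, which lie head to head and passed 2-fold downward only with DKK2 against normal glucose, and of Col10a1, which passed it upward with DKK2. Capitals mark matches, on either strand, to the CCAAT box (CCAAT), the TATA box (TATAAA), the GC box (GGGCGG) and the AP-1 site (TGANTCA).
Col1a2: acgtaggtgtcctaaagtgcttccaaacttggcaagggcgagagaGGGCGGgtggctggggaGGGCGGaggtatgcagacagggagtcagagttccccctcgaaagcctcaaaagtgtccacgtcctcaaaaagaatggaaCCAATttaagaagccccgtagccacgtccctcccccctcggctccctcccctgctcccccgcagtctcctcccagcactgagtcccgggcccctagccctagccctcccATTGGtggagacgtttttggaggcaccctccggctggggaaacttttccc
Col3a1: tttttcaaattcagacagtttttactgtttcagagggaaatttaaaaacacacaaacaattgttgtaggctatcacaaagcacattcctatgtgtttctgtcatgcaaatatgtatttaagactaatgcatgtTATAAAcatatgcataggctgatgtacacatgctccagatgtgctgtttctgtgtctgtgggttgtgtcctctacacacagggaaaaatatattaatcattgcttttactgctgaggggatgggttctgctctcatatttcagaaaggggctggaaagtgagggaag
Col4a1: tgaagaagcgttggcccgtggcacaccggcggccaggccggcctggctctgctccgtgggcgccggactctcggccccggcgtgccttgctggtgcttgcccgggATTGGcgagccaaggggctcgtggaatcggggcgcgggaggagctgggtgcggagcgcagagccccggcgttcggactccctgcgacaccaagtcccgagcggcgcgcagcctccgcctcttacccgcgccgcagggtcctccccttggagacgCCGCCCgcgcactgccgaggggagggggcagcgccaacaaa
Col4a2: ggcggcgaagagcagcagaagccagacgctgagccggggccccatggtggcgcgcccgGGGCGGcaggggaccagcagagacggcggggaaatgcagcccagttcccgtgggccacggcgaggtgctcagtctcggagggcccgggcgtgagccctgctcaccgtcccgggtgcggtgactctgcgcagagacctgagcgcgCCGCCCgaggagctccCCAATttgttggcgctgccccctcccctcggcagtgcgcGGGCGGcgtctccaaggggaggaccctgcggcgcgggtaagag
Col10a1: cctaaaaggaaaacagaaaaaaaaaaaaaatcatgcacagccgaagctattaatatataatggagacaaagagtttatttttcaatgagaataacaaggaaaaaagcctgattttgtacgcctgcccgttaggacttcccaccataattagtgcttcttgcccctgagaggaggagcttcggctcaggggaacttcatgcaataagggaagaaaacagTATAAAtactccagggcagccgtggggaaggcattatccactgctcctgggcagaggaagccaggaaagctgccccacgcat

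These windows lie at chr6:4505368-4505667 (plus strand), chr1:45311288-45311587 (plus strand), chr8:11312777-11313076 (minus strand), chr8:11312555-11312854 (plus strand) and chr10:34389731-34390030 (plus strand). Of all 32851 windows of this length in the table, 37.4% held a CCAAT box, 13.6% a TATA box, 35.7% a GC box and 7.81% an AP-1 site. Among the 38 windows of 35 collagen genes, 13 held a CCAAT box, 5 a TATA box, 23 a GC box and 1 an AP-1 site. The Col1a2 window held 2 CCAAT boxes and 2 GC boxes. The windows of Col3a1 and Col10a1 each held 1 TATA box, at position -117 and at position -32 from the annotated start, and no GC box. Col4a1 and Col4a2 start on opposite strands 21 bases apart, with annotated 5' ends that overlap, and their windows share 78 bases. The Col4a1 window held 1 CCAAT box and 1 GC box, and the Col4a2 window 1 CCAAT box and 3 GC boxes. The Col4a1 GC box, at position 9, lies in the shared bases and is the same site as the Col4a2 match at position 7. A match is a string of letters and was not tested as a binding site.

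High glucose was first set against normal glucose. Of 35 collagen genes measured, 0 were higher and 1 was lower, where 2.67% of all 16766 measured genes were higher and 5.73% lower. Their median log2 difference was -0.19, against 0.09 over all genes, and 20 of 35 lay below 0 (57.1%), against 43.6% of all genes. The lower gene was Col6a2, which encodes a chain of the type VI collagen filaments around cells. Its scaled signal was 7645 in normal glucose and 3401 in high glucose, a log2 difference of -1.17 (error SD 0.20).

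Among the fibrillar genes 7 of 11 were below 0 in high glucose, with a median of -0.20. With normexp correction their median was -0.11, above the -0.26 over all genes, and 4 of the 11 lay below that all-gene median. Col1a1, the alpha 1 chain of type I collagen, read 46391 in normal glucose and 40512 in high glucose, and Col1a2, its partner chain, read 177021 and 152959. Their differences, -0.20 and -0.21, were about the size of the technical error. Col3a1, the chain of type III collagen in compliant tissue, was at -0.37 (67433 and 52337). Col5a2, a chain of the type V collagen that starts fibrils, had the largest positive fibrillar difference, 0.55 (1085 and 1585).

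Of the 7 measured basement membrane genes, 5 were below 0 in high glucose, with a median of -0.19. Col4a1 and Col4a2, the chains of the common type IV network, had the lowest values of this class. Col4a1 read 5483 in normal glucose and 3930.0 in high glucose (-0.48), and Col4a2 read 5838 and 3544 (-0.72). Col18a1, the heparan sulphate-bearing collagen from which endostatin is cut, was at 0.26 (7465 and 8958). Col4a5 and Col4a6, neighbours on the X chromosome, were at 0.10 and -0.03, and Col15a1, a collagen of the vessel basement membrane zone, was at -0.19.

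The 17 other collagens measured in high glucose had a median of 0.04, with 9 above and 8 below 0. The highest was Col10a1, the network collagen of growth plate cartilage, at 0.68 (180.1 and 289), and after Col6a2 the lowest was Col17a1, a transmembrane collagen of epithelial adhesion plaques, at -0.74 (47.2 and 28.3). Background correction moved this comparison the most: with normexp correction 10 collagen genes were lower, among 23.5% of all genes lower and 1.03% higher, and the median over all genes was -0.26. The 9 genes added were Col2a1, Col9a1, Col9a3, Col11a2, Col14a1, Col15a1, Col17a1, Col22a1 and Col25a1, whose scaled signals in normal glucose lay between 10.7 (Col9a3) and 68.9 (Col9a1). At 1.5-fold 1 collagen was higher and 4 lower (14.0% and 13.6% of all genes), and at 3-fold 0 were higher and 0 lower (0.626% and 1.93% of all genes).

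**Figure D1:**
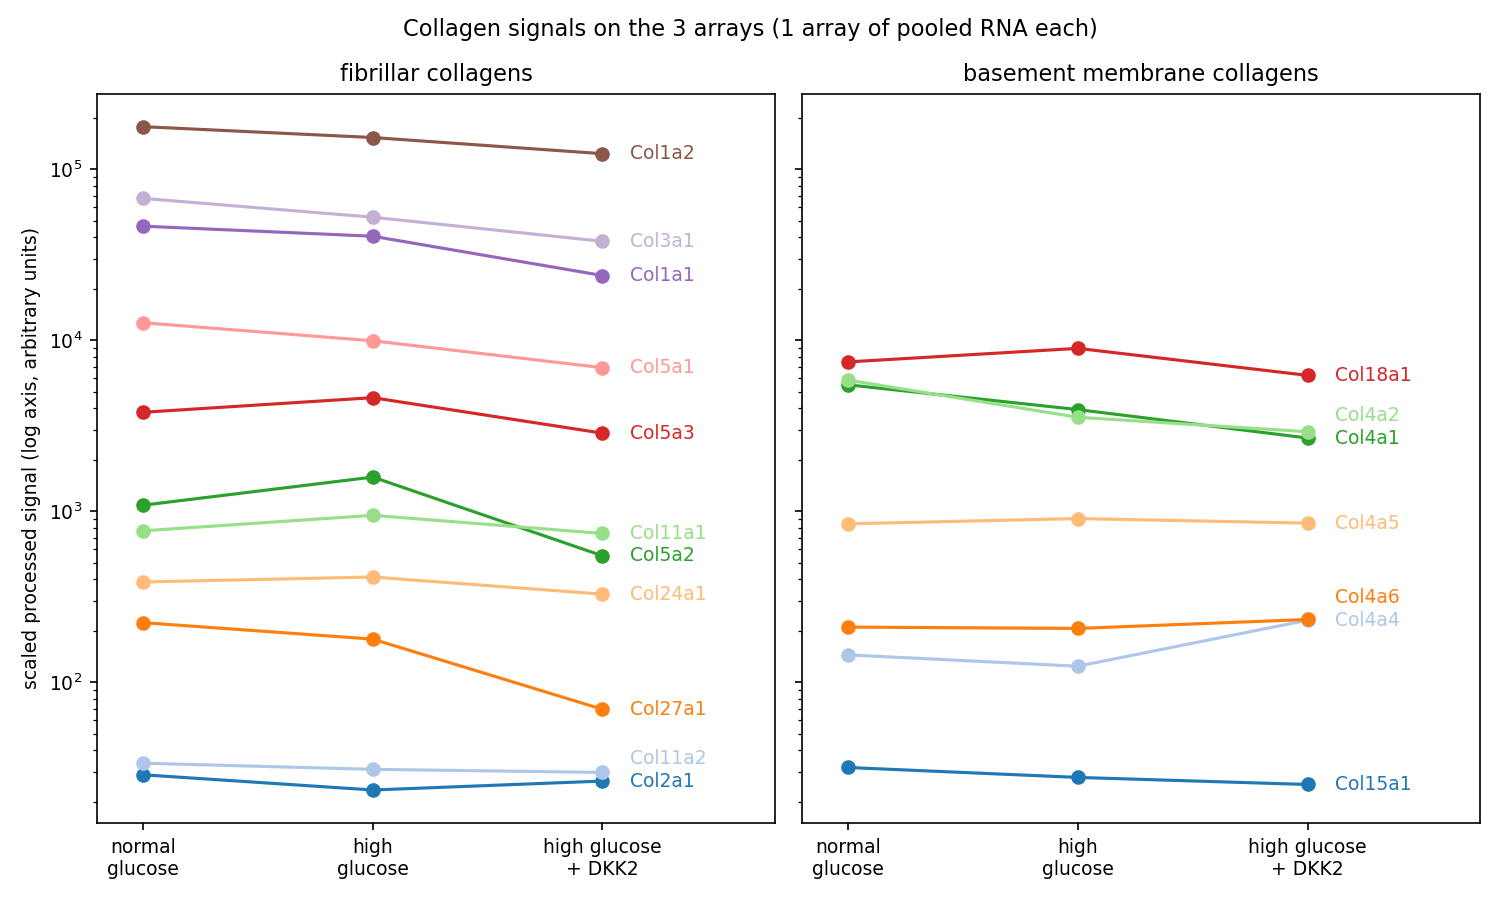
Scaled processed signal (log axis, arbitrary units) of the fibrillar genes (left) and the 7 measured basement membrane genes (right) on the 3 arrays, 1 point per array of pooled RNA and a line per gene. Only the slope of a line can be read, since genes sit on different probes. Col1a1, Col1a2, Col3a1, Col5a1, Col27a1, Col4a1 and Col4a2 step down at each array, while Col5a2 is at 1085, 1585 and 549. Col11a2 and Col15a1 also step down at each array, by less than the technical error.

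DKK2 in high glucose was next set against high glucose alone, which bears on the effect of DKK2 protein under high glucose that the study set out to measure. Fibrillar collagens were on the low side as a class: 10 of 11 lay below 0, with a median log2 difference of -0.47 against 0.08 over all 17825 genes, of which 42.4% lay below 0. The count was 10 of 11 with quantile normalization and with median scaling too, and 9 of 11 with normexp correction. Past 2-fold were 2 of the 11, Col5a2 and Col27a1. Over all 37 measured collagens 2 were higher and 5 lower, where 5.08% of all genes were higher and 4.85% lower. At 1.5-fold 4 collagens were higher and 8 lower (13.1% and 11.3% of all genes), and at 3-fold 2 were higher and 3 lower (1.59% and 1.8% of all genes). The fibrillar set was chosen with earlier results of these data in view, so these counts are a description.

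Col5a2 had the largest fibrillar difference. Its scaled signal was 1585 in high glucose and 549 with DKK2, a log2 difference of -1.53 (error SD 0.20, 2.88-fold lower). Its neighbour on the genome, Col3a1, read 52337 and 37839, a difference of -0.47. The other type V chains were closer to 0 than Col5a2: Col5a1 was at -0.52 (9921 and 6908) and Col5a3 at -0.69 (4614 and 2861). Type V chains join type I in fibrils, and all of them were lower by more than the error SD.

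Col27a1, a fibrillar collagen known from cartilage, read 179 in high glucose and 69.6 with DKK2, a difference of -1.36 (-1.01 with normexp correction). Col1a1 was at -0.76 (40512 and 23874), and Col1a2 was at -0.31 (152959 and 123022). The remaining fibrillar genes were Col11a1, Col11a2, Col24a1 and Col2a1. Col11a1 was at -0.35 (947 and 742), Col24a1 at -0.33 (413 and 328), Col11a2 at -0.06 (31.0 and 29.8) and Col2a1 at 0.17 (23.5 and 26.5). The signals of Col11a2 and Col2a1 were low on every array, and Col2a1 was the single fibrillar gene above 0.

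Basement membrane collagens showed no difference past 2-fold with DKK2. Of 7 measured, 5 were below 0, with a median of -0.14. Col4a1 read 3930.0 in high glucose and 2681 with DKK2 (-0.55), and Col4a2 read 3544 and 2917 (-0.28), so the gap between these partners was 0.27 with an error SD of 0.29. Col18a1 was at -0.52 (8958 and 6229), but its other probe was at 0.16. Col4a4, a chain of the type IV network of kidney and ear, was at 0.89 (124 and 231), and its other measured probe was at -0.25. A further Col4a4 probe was above background only in normal glucose (49.7, then 4.71 in high glucose and 3.60 with DKK2). Col4a5 (-0.09), Col4a6 (0.17) and Col15a1 (-0.14) lay within the technical error of 0.

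The other collagens differed in both directions with DKK2. Of 19 measured, 3 were lower and 2 higher (4.85% and 5.08% of all genes), with a median of -0.02. Col23a1, a transmembrane collagen, was lower on each of its 3 probes: the scaled signal of the probe used was 395 in high glucose and 112 with DKK2 (-1.82), and the others were at -1.82 and -2.10. Col20a1, a fibril-associated collagen, was lower on both of its probes, at -2.58 (199 and 33.2) and at -1.54 (147 and 50.8). With the stricter filter on dim signals it was read on the latter probe.

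Col8a2 had the largest collagen difference and its probes disagreed. Type VIII collagen forms the hexagonal network under endothelia, with Col8a1 as the partner chain. The Col8a2 probe used read 411 at normal glucose, 327 at high glucose and 7.01 with DKK2, a log2 difference of -5.54 between the last 2 arrays (-2.89 with normexp correction, -2.55 as the mean of both probes). The other Col8a2 probe read 47.9, 47.7 and 65.2, a difference of 0.45. Col8a1 was at -0.31 (1711 and 1382).

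The 2 higher genes were Col10a1 and Col9a3. Col10a1 read 289 in high glucose and 1063 with DKK2, a log2 difference of 1.88 (3.67-fold higher, error SD 0.20). Col9a3, a chain of the type IX collagen on cartilage fibrils, read 8.30 and 39.1, a difference of 2.24 (1.01 with normexp correction), so its signal was close to background in high glucose. Its partner chains Col9a1 and Col9a2 were at 0.38 and -0.02. Each of Col10a1 and Col9a3 rests on 1 probe. Of 3 measured cartilage and bone markers, Acan, the aggrecan gene, was at 1.47 (26.0 and 72.0), Sox9 at 0.10 and Runx2 at -0.25. With normexp correction Acan was at 0.87, short of 2-fold.

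**Figure D2:**
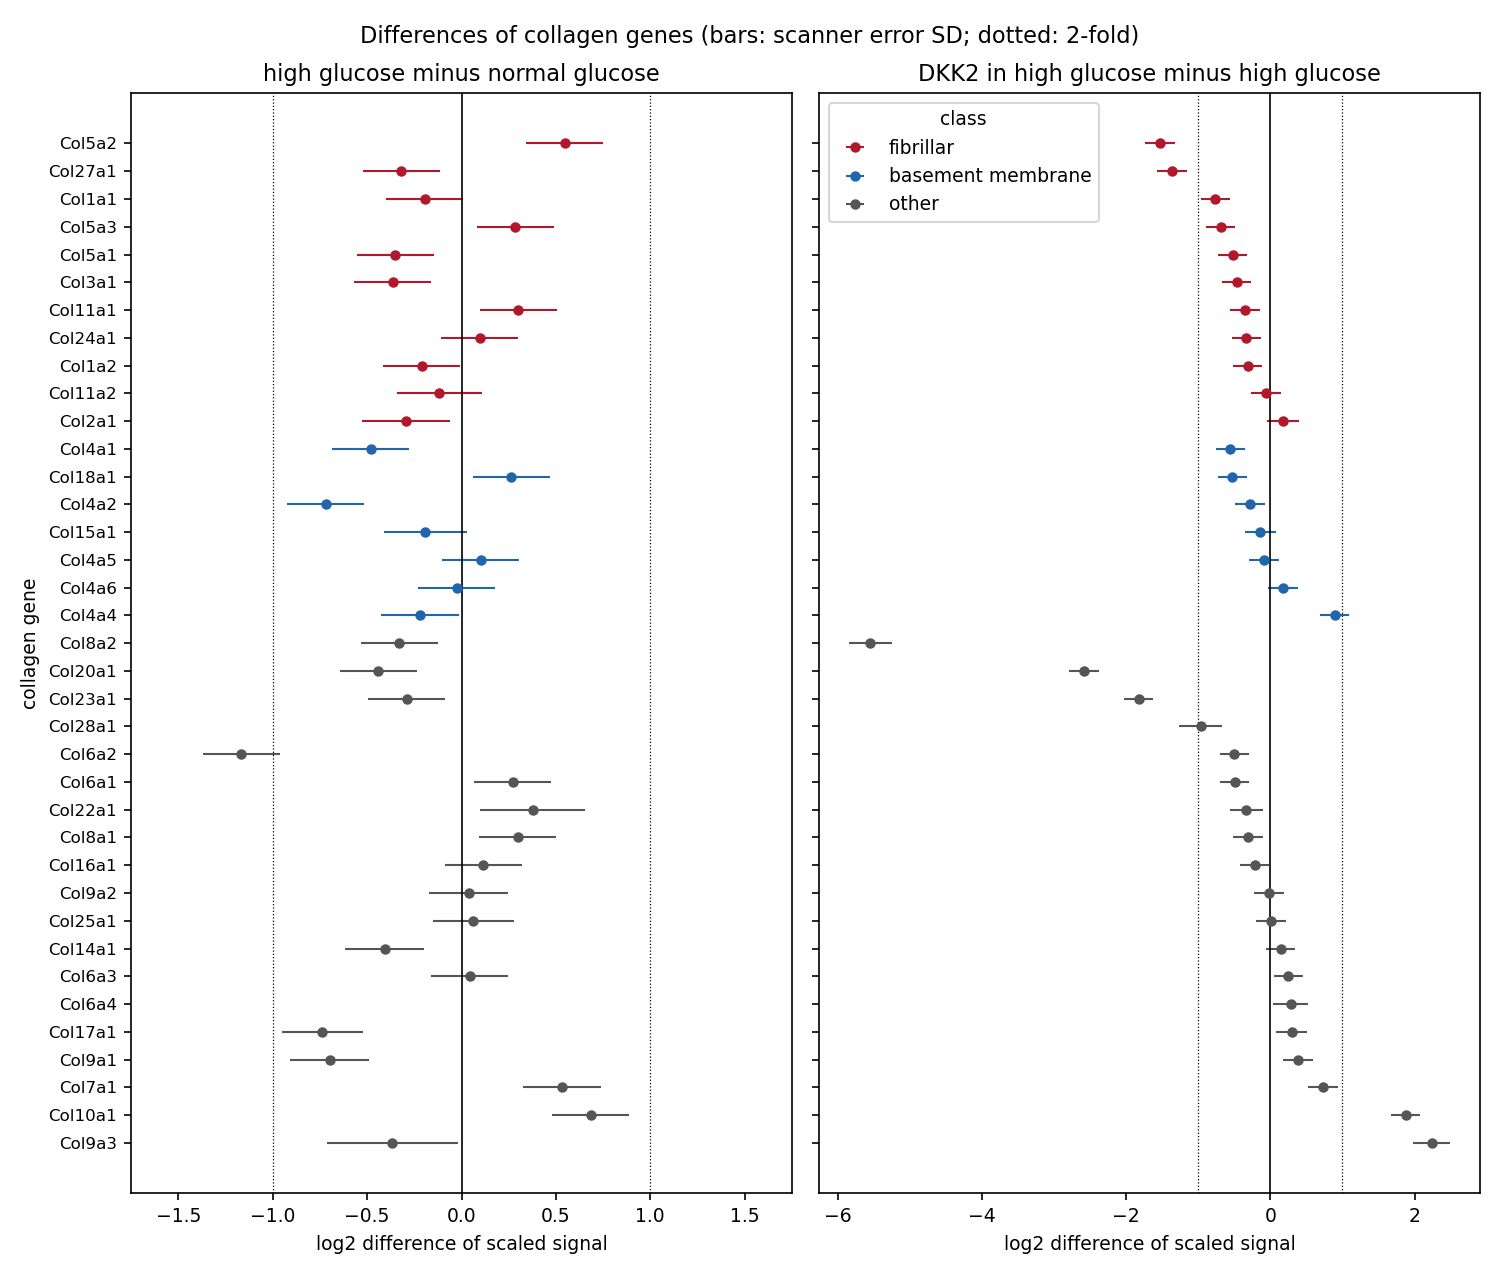
Log2 difference of each measured collagen gene (points, with the scanner error SD as bars) for high glucose minus normal glucose (left) and DKK2 in high glucose minus high glucose (right). The horizontal scales differ: all but Col6a2 lie within 2-fold (dotted) on the left, while Col8a2 reaches -5.54 and Col9a3 2.24 on the right.

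Type VI collagen showed unlike values among its chains, which assemble together into 1 molecule. With DKK2 against high glucose Col6a1 was at -0.50 (45334 and 32152), Col6a2 at -0.50 (3401 and 2407) and Col6a3 at 0.25 (30357 and 36161). In high glucose against normal glucose the gap between Col6a1 and Col6a2 was 1.44 log2 units (error SD 0.29), although Col6a1 and Col6a2 are neighbours on the genome. Each of these genes had 1 probe. For types with 2 or more measured chains, the gap between the highest and lowest chain with DKK2 was also read. It was 0.45 for type I (error SD 0.29), 1.01 for type V (0.29) and 0.75 for Col6a1, Col6a2 and Col6a3 of type VI (0.29). Col6a4, at 0.28, was left out of the type VI gap. The gap was 5.24 for type VIII (0.36), 2.25 for type IX (0.33) and 0.29 for type XI (0.30). The type VIII gap rests on the Col8a2 probe described above. The chain pairs of type IV were 0.27 apart for Col4a1 and Col4a2 and 0.26 apart for Col4a5 and Col4a6 (0.29 each). Col4a4, a further type IV chain at 0.89, was not in these pairs.

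The remaining measured collagens lay within 2-fold with DKK2 against high glucose. Col16a1, a fibril-associated collagen, read 22958 at normal glucose, 24874 at high glucose and 21389.7 with DKK2 on the probe used. Col14a1, Col22a1, Col25a1 and Col9a2 lay between -0.33 and 0.14 with DKK2 against high glucose. Col28a1 was at -0.97 (12.3 and 6.31), just short of the 2-fold rule and close to background. Col7a1, the anchoring fibril collagen of skin, was at 0.73 (310.4 and 516). Col17a1 was at 0.30 (28.3 and 34.7), and Col6a4 was at 0.28 (10.8 and 13.1).

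With DKK2 in high glucose against normal glucose, a comparison that shares its arrays with both others, all 11 fibrillar genes were below 0. Of all genes 43.5% were below 0. The fibrillar median was -0.53, against 0.12 over all genes, and the count of 11 was the same with quantile normalization and median scaling. With normexp correction it was 11 too, but the median over all genes was then -0.25, and 10 of the 11 lay below that median. Over the 35 measured collagens 3 were higher and 7 lower, where 10.5% of all 16676 genes were higher and 10.4% lower. The lower genes were Col8a2 at -5.87 (its other probe at 0.44), Col20a1 at -3.02, Col23a1 at -2.11 and Col27a1 at -1.68. Also lower were Col6a2 at -1.67, Col4a1 at -1.03 and Col4a2 at the 2-fold line (scaled signals 5838 and 2917). The higher genes were Col10a1 at 2.56, Col9a3 at 1.87 and Col7a1 at 1.26 (0.83 with normexp correction). At 1.5-fold 4 collagens were higher and 11 lower (24.2% and 19.2% of all genes), and at 3-fold 2 were higher and 5 lower (3.44% and 4.49% of all genes).

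Several genes sat at the 2-fold line in this comparison. Col4a1 (-1.03) and Col4a2 were just past it and Col5a2 (-0.98) and Col1a1 (-0.96) just short of it, each with an error SD of 0.20. Col5a1 was at -0.87, Col3a1 at -0.83, Col1a2 at -0.53, Col5a3 at -0.41 and Col24a1 at -0.24. With normexp correction Col4a1 was at -0.92, Col4a2 at -0.85 and Col5a2 at -1.08, and 1 collagen was higher and 14 lower, among 5.63% of all genes higher and 24.0% lower. Under that correction Col9a3 turned to -0.78.

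Genes that modify, fold, trim and cross-link collagen were read next. Of 31 measured with DKK2 against high glucose, 1 was above and 3 were below the 2-fold lines (5.08% and 4.85% of all genes), and the median was -0.06. The lower ones were Loxl2 (-2.00, 2515 and 629), Lox (-1.29, 5714 and 2336) and Adamts2 (-1.20, 18716 and 8148). Lox and Loxl2 encode enzymes that cross-link collagen, and Adamts2 encodes the protease that removes the amino-terminal propeptide of fibrillar procollagen. Loxl2 was at -1.32 as the mean over its probes. The higher one was Loxl4, another lysyl oxidase gene, at 1.04 (173 and 356), and at 0.87 with normexp correction.

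In high glucose against normal glucose 30 of these genes were measured, 1 of them higher and 1 lower (2.67% and 5.73% of all genes). Adamts2 was at 1.12 (8618 and 18716) and Serpinh1, the collagen chaperone gene, at -1.22 (66378 and 28525). Adamts2 was thus higher in high glucose and lower with DKK2, which share the high glucose array. Adamts3, outside these counts, was above background in high glucose (26.0) but not in normal glucose (2.40), at least 3.43-fold higher. Serpinh1 read 20249 with DKK2, a difference of -0.49 from high glucose and -1.71 from normal glucose. With DKK2 against normal glucose 1 of 30 was higher and 4 lower (10.5% and 10.4% of all genes), of which Loxl2 (-2.70), Serpinh1 (-1.71) and Lox (-1.66) were the lowest and Loxl4 (1.65) the higher one. Pcolce, the enhancer of procollagen trimming, read 164831, 182847 and 172418 and stayed within the technical error of 0 in all comparisons.

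Among collagen receptor genes, 1 of 10 was higher and 2 lower in high glucose against normal glucose (2.67% and 5.73% of all genes). With DKK2 against high glucose 1 of 9 was higher and 1 lower (5.08% and 4.85% of all genes). Itga11, the integrin alpha 11 gene for binding fibrillar collagen, read 484 at normal glucose, 1145 at high glucose and 207 with DKK2. Its differences were 1.24 for high against normal glucose and -2.47 for DKK2 against high glucose. Itga1, the integrin alpha 1 gene whose product prefers type IV collagen, read 784, 134 and 86.6, a difference of -2.55 in high glucose (-1.63 as the mean over its probes). With DKK2 against normal glucose 0 of 9 were higher and 2 lower (10.5% and 10.4% of all genes), Itga1 at -3.18 and Itga11 at -1.22. Itga2, the integrin alpha 2 gene, was at 1.12 with DKK2 (32.3 and 70.2), and at 0.62 with normexp correction. Gp6, the platelet collagen receptor gene, was at -1.48 in high glucose, at signals near background. With DKK2 Gp6 was not above background, at least 3.78-fold lower than in normal glucose. Ddr2, a receptor tyrosine kinase gene for fibrillar collagen, was at -0.30 with DKK2 (21759 and 17730.5).

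Among genes for collagen-degrading enzymes, 5 of 13 measured passed 2-fold upward with DKK2 against high glucose and 0 passed it downward, where 5.08% and 4.85% of all genes did. Their median was 0.38, against 0.08 over all genes. Mmp13, a collagenase gene, read 827 at normal glucose, 1173 at high glucose and 8141 with DKK2, which is 6.94-fold higher than high glucose (log2 difference 2.80, error SD 0.20). Mmp3, the stromelysin gene, read 15413, 21914 and 82191, a difference of 1.91. On the same list, Mmp1a (33.5 and 254), Mmp1b (13.5 and 92.9) and Mmp8 (5.36 and 24.9) were at 2.92, 2.78 and 2.22. With normexp correction they were at 2.08, 1.54 and 0.68.

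Mmp1a and Mmp1b are related genes, and whether their probes share signal was not tested. Ctsk, the cathepsin gene that cuts collagen in lysosomes, was at 0.85 (27174 and 49107). Mmp2 and Mmp14, which act together at the cell surface, were each at 0.08 with DKK2. In high glucose against normal glucose Mmp2 was at -1.04 (27753 and 13512), the single lower gene of 12 measured, with 0 higher (5.73% and 2.67% of all genes). With DKK2 against normal glucose 5 of 12 were higher and 1 lower (10.5% and 10.4% of all genes), led by Mmp1a at 3.67, Mmp1b at 3.41 and Mmp13 at 3.30, with Mmp16 at -1.30. With normexp correction Mmp1a was at 0.85 and Mmp1b at 0.14 in that comparison, and Mmp13 at 3.19. Mmp8, not above background in normal glucose, was at least 3.29-fold higher with DKK2 than there.

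**Figure D3:**
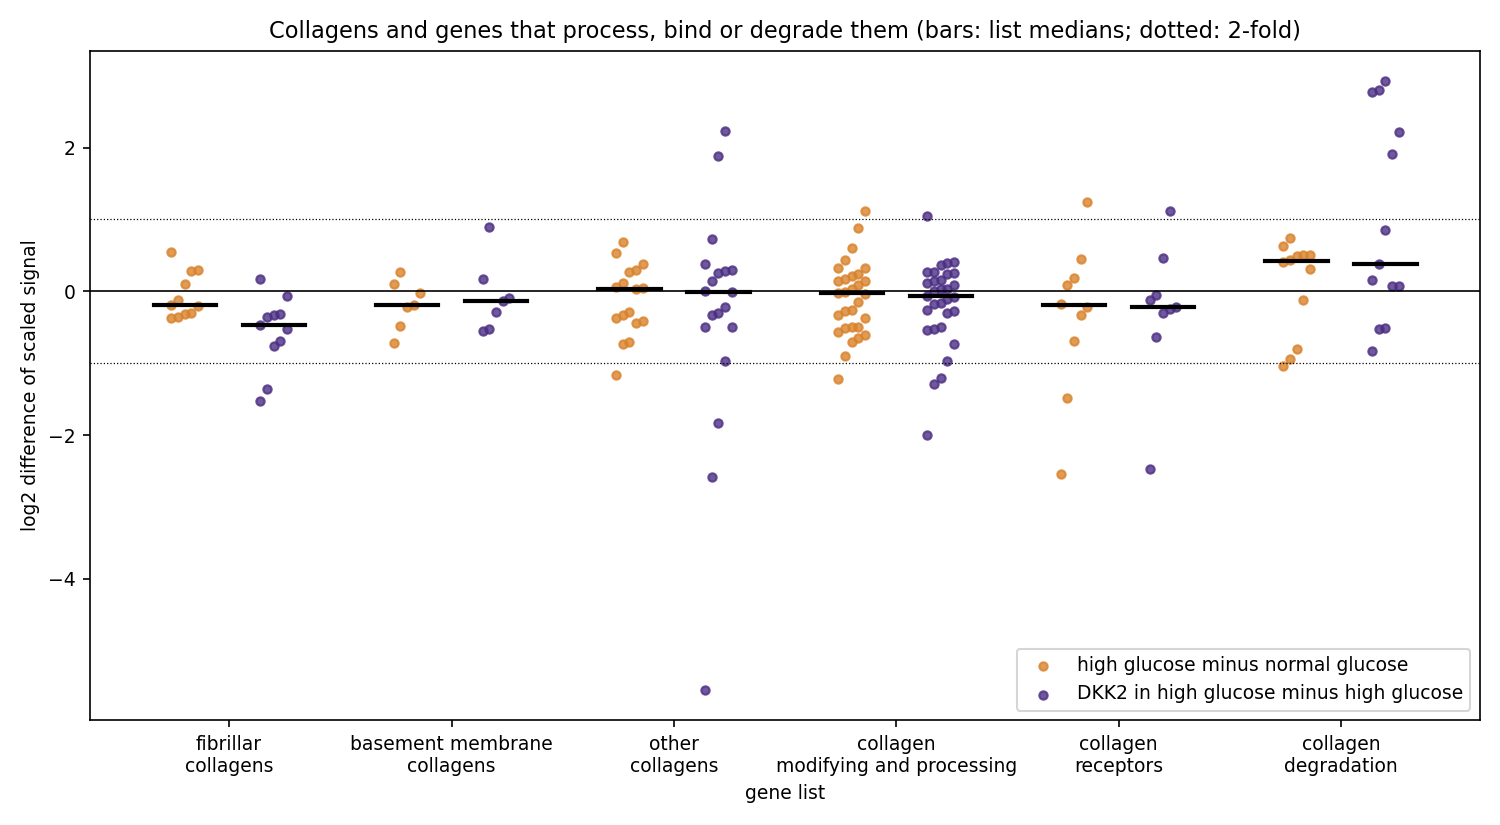
Log2 differences of the collagen classes and of the lists of genes that process, bind or degrade collagen (1 point per gene, black bars for list medians, dotted lines for 2-fold), for high glucose minus normal glucose (orange) and DKK2 in high glucose minus high glucose (purple). The fibrillar medians are -0.20 and -0.47, and 5 purple points of the degradation list lie above 2-fold.

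Markers of other cell types differed between the same arrays. With DKK2 against high glucose 6 of 6 fibroblast markers were below 0 (median -0.53, with Dpt at -2.68), and their summed scaled signal was 408887 at normal glucose, 395212 at high glucose and 283632 with DKK2. All 7 smooth muscle and pericyte markers were also below 0 (median -0.66), with sums of 91361, 56461 and 31719. All 5 macrophage markers were above 0 (median 1.46), with sums of 2539.6, 2883 and 8134. All 4 adipocyte markers were below 0 (median -3.51), with sums of 15160.5, 22433 and 8087. A sum follows its brightest gene: at normal glucose Dcn gave 268191 of the fibroblast sum and Fabp4 12303 of the adipocyte sum. Of 4 skeletal muscle markers 3 were below 0 (median -1.04), with Myl1 at -5.47 and Ckm at 0.34, and of 4 Schwann cell markers 3 were below 0 (median -0.35). The 9 measured endothelial markers split into 4 above and 5 below 0 (median -0.29). They ran from Cldn5 at -1.25 and Tek at -1.14 to Tie1 at 0.35 and Vwf at 0.58. The 10 endothelial markers summed to 4240 at normal glucose, 5574 at high glucose and 6180 with DKK2, mostly from Kdr (3648, 4606 and 5417). In high glucose against normal glucose all 8 measured were above 0 (median 0.47, against 0.09 over all genes). The highest was Cldn5 at 1.55 (29.8 and 87.4). With normexp correction Cldn5 was at -0.25, Cdh5 at 0.09 and Kdr at 0.42, where the median over all genes was -0.26. All 4 adipocyte markers were above 0 in this comparison too (median 0.93). Apart from the endothelial genes Emcn and Erg, none of these markers failed to be well above background on any array. Their part in the collagen and collagenase differences was not tested.

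Probes of a single collagen gene often disagreed with DKK2. Of 14 genes with more than 1 probe, 11 had at least 2 measured probes in DKK2 against high glucose, and 7 of the 11 had probes on both sides of 0. The range between probes had a median of 0.68 log2 units and reached 6.00 for Col8a2. For Col25a1 the probe used was at 0.01 and another at -1.80. In high glucose against normal glucose 1 of 10 such genes had probes of opposite sign, with a median range of 0.29. All 11 fibrillar genes and Col4a1, Col4a2, Col6a1, Col6a2 and Col6a3 had a single probe each, so no second probe could be read for them.

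**Figure D4:**
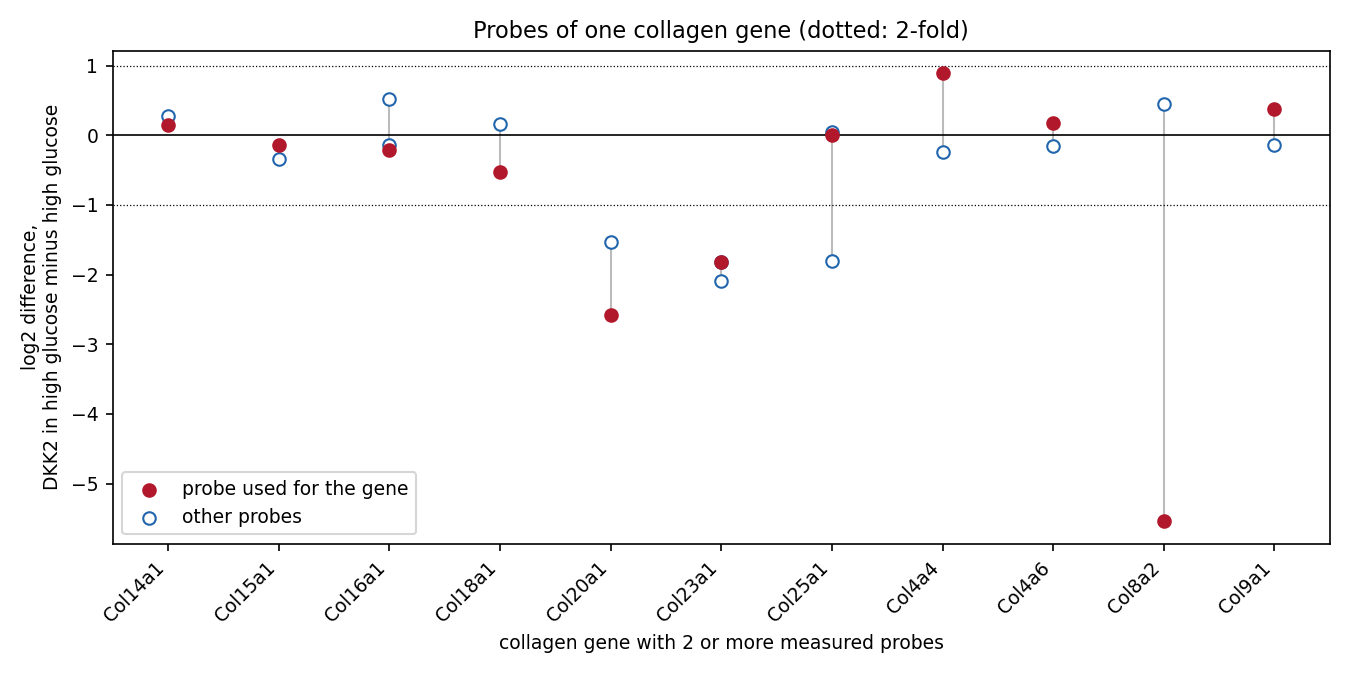
Log2 difference of each measured probe (points) for the 11 collagen genes with at least 2 measured probes, DKK2 in high glucose minus high glucose, with the probe used for the gene filled and dotted lines at 2-fold. Probes of Col23a1 and Col20a1 all lie below -1, while those of Col8a2 lie at -5.54 and 0.45.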

How the data were processed

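Gene expression was measured on 3 Agilent one-colour (Cy3) arrays, 1 per condition, each with RNA pooled from 3 samples per the labels. Per the file headers, the deposited signal intensity of each spot was quantified with Feature Extraction 11.5.1.1, background-subtracted and on a linear scale, for an array design annotated on mm9. The deposited value table also holds intensity and lay within a fraction of 0.001 of the scanner's mean for at least 99.2% of probes, with column medians of 101.8, 196.2 and 204.6, unlogged, unscaled and uncentred. Of 44397 spots, 1377 control spots and 110, 115 and 136 outlier spots were left out, and 0 were saturated. Log2 processed signal minus the array's 75th percentile was averaged per probe. A probe counted as well above background if the scanner had marked 50% or more of its spots so.

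Accessions gave a symbol to 27499 probes in a RefSeq table of GRCm38.p6, and 11930 are unnamed here. A gene was read on its brightest probe, and a difference was given where that probe was above background on both arrays. For a bound, the dim array took its own signal or the lowest signal above background, whichever was larger. Groups were taken from sample titles. All fibrillar and basement membrane genes, other collagens past 2-fold, and up to 3 genes per direction of each related list were named; further genes were named after their values were seen. The collagen members, lists and rules were chosen with earlier results of these data known. Counting was tested on simulated data with equal detection calls on every array and equal changes on all probes of a gene. That test could not cover probe disagreement or loss of signal to background. Alternatives were normexp (offset 50), quantile and median scaling, no filter, a minimum signal of 100, the deposited table, averaging a gene's probes and rules of 1.5-fold and 3-fold. Precision is limited by the number of arrays. Tools were R 4.3.3, limma 3.58.1, Python 3.11.15, numpy 2.4.6 and pandas 2.3.3.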

Additional observations from a re-analysis of the deposited data

How the results depend on the processing

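No paired analysis was possible because each condition has 1 array, and no replicate could be left out. With normexp correction, in high glucose against normal glucose the count of lower collagen genes went from 1 to 10 and the medians were -0.40 for basement membrane and -0.70 for other collagens; with DKK2 against normal glucose 1 was higher and 14 lower, the medians were -0.79 for all, -0.79 for fibrillar and -1.02 for other collagens, and Col9a3 reversed to -0.78. The cause was not tested. With no filter on dim probes, 5 were higher and 3 lower in high glucose against normal glucose. With the stricter filter, 1 was higher with DKK2 against high glucose, the median of other collagens there was -0.31, and the fibrillar median against normal glucose was -0.83, over fewer genes. The mean over probes put the basement membrane median with DKK2 against normal glucose at -0.039. That value is Col4a4, the mean of its 2 measured probes (0.67 and -0.75). By size rule alone, 1.5-fold gave 1 higher and 4 lower in high glucose, 4 higher and 8 lower with DKK2 against high glucose and 11 lower against normal glucose, while 3-fold gave 0 lower in high glucose and 3 lower with DKK2 against high glucose. The other counts over all collagens and the other medians stayed within 1.5 times (counts) or the technical error (medians) under quantile normalization, median scaling and the deposited table. Within classes, with DKK2 against normal glucose, the fibrillar count of lower genes went from 1 to 3 with quantile normalization (Col1a1, Col5a1 and Col27a1), and the basement membrane count from 2 to 1 with median scaling and with the deposited table (without Col4a2). Of 107 differences of single genes, 40 moved by more than their technical error with normexp correction, besides the 1 that reversed (Col9a3). With the mean over probes 15 moved by more than that error, and 2 did with quantile normalization. With the stricter filter 2 of the 72 it left did. Signal over background limits the values of Col8a2 (with DKK2), Col9a3, Col28a1, Col6a4 and Col13a1, which read close to the lowest signals above it.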
